A study of Mus musculus with 16 samples.

Results

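Krt15, Krt5 and Krt14 are the 3 keratins that mark the basal layer of the epidermis and the outer cells of the hair follicle. They were picked by gene name from 22579 genes, each gene being represented by its transcript with the most ribosome footprints. Their messages (RNA-seq) and their ribosome-protected fragments (Ribo-seq) had been counted in hair follicle stem cell organoids, 3-dimensional cultures grown for 2 weeks from the epidermal cells of C57BL/6J mice. Cultured cells were sorted into α6+/CD34+ HFSCs and α6+/CD34- progenitors, both being integrin α6-positive and separated by the surface protein CD34. Each cell type came from untreated cultures or from cultures given N1-acetylspermidine (N1-AcSpd), an acetylated polyamine, over the last 72 h. Each of these 4 groups held 2 libraries per assay, 1 from each of 2 donor mice, so that the 16 libraries made up 8 pairs of RNA-seq and Ribo-seq from the same lysates. The sort acted on a mixed culture, so a bulk library averages over whatever cells passed the gate.

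Keratins build intermediate filaments as obligate pairs of a type I and a type II chain. Krt5, the type II chain, and Krt14, its type I partner, form the filament network of basal keratinocytes. Krt15 is another type I chain that can pair with Krt5, and it is widely used as a marker of the follicle bulge, where HFSCs reside. Differentiating keratinocytes leave the basal layer, shut off the Krt5 and Krt14 genes and switch on Krt1 and Krt10, while Krt6, Krt16 and Krt17 accompany wounding, culture and hyperproliferation.

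Krt15 (ENSMUSG00000054146, transcript ENSMUST00000107411) lies on the minus strand at chr11:100131758-100135928 of GRCm38, has 8 exons and encodes 456 residues. Krt14 (ENSMUSG00000045545, transcript ENSMUST00000007272) lies in the same type I cluster, on the minus strand at chr11:100203162-100207548, and encodes 484 residues in 8 exons. Krt5 (ENSMUSG00000061527, transcript ENSMUST00000023709) lies in the type II cluster, on the minus strand at chr15:101707070-101712898, and encodes 580 residues in 9 exons. The stretch around each start codon is shown because the ribosome loading of these messages is compared further on, with the start codon in capitals.
Krt15: tgcctgaccATGgccaccacattc
Krt5: ggaaccatcATGtctcgccagtcc
Krt14: ctcaaagccATGgccacctgcagc
In all 3 a purine stands 3 bases before the start codon, and the start codon is followed by g in Krt15 and Krt14 and by t in Krt5.

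Keratin genes resemble each other closely, and a footprint that matches more than 1 gene cannot be placed. The coding sequence of each member was therefore cut into overlapping words of 28 bases, about the length of a footprint, and each word was searched for in the other transcripts and on the chromosomes. Of the Krt15 words, 94.3% occurred at no other place, against 81.5% of the Krt5 words and 61.3% of the Krt14 words. Krt14 shared 22.9% of its words with Krt16 and 14.7% with Krt17. Krt5 shared 12.7% with Krt6a and 7.36% with Krt6b. Krt15 shared 3.36% with Krt17, 2.39% with Krt25 and 1 word with Krt14. The longest coding run that the type I chains Krt15 and Krt14 share with another keratin is printed because footprints that fall inside it have no single origin; it spans coding bases 286 to 344 of Krt15 (59 bases, with Krt25) and 306 to 439 of Krt14 (134 bases, with Krt16).
Krt15 with Krt25: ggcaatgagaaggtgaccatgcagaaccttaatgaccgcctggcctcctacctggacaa
Krt14 with Krt16: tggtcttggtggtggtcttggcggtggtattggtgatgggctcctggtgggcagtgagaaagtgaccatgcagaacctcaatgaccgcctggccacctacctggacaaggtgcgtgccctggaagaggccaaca
How reads with several matches were assigned is not given in the sources used here.

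With 1 transcript kept per gene, RNA-seq libraries held 21601141 to 31505435 counts and Ribo-seq libraries 34467 to 267921 footprints, so the precision of every footprint value is set by the smaller assay. The shallowest Ribo-seq library was replicate 1 of the untreated progenitors. In RNA-seq the deviations of the 2 mice ran together across 3 groups (Pearson r across genes 0.352 to 0.591) and against them in the treated HFSCs (-0.572 to -0.395), so in this assay the mouse numbering of the treated HFSCs goes against that of the other groups. In Ribo-seq, from the same lysates, all groups correlated only weakly. The treated HFSCs did so with the other 3 groups at 0.024, 0.032 and 0.113, and those 3 groups with each other at 0.083, 0.057 and 0.075. The footprints thus show too little of the mice to decide on the numbering of any group. The sort was visible in Cd34, which was higher in HFSCs by 4.70 on the log2 scale in untreated cultures (edgeR, adjusted P = 0.00302) and by 4.36 in treated cultures (adjusted P = 0.00479). Markers of fibroblasts, melanocytes, leukocytes, endothelium and Merkel cells summed to at most 13.6, 2.12, 3.22, 2.43 and 3.72 CPM, counts scaled to a common library size by the TMM method, in any RNA-seq library. Itga6, the other sorting marker, was lower in HFSCs (802 and 689 CPM) than in progenitors (980 and 946 CPM) in untreated cultures. Treated HFSCs held 803 and 848 CPM of it, against 984 and 933 CPM in treated progenitors. Of the 5 listed HFSC markers, which include Cd34 and Itga6, 4 had higher values in HFSCs and 1 lower, untreated and treated. In each case 2 passed an adjusted P of 0.05 (edgeR), where 0.148% and 0.746% of all genes did.

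Krt5 and Krt14 were among the most abundant messages of these cells, and Krt15 was not. By mean CPM over the 8 RNA-seq libraries Krt5 ranked 2, Krt14 ranked 3 and Krt15 ranked 405 of all genes. Among footprints Krt5 ranked 1, Krt14 ranked 2 and Krt15 ranked 118. Together the 3 genes took 3.28% to 3.88% of the counts of an RNA-seq library and 4.88% to 5.48% of the footprints of a Ribo-seq library, with 1 transcript kept per gene. Per kilobase of transcript, the Krt5 message stood at 8256 to 9792 CPM and the Krt14 message at 8599 to 10494 CPM, and the ranges overlapped, whereas the Krt15 message stood at 56.9 to 449 CPM.

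Krt5, the type II chain, held a nearly constant message level. It measured 21477 and 21514 CPM in untreated progenitors, 20174 and 20644 CPM in treated progenitors, 19088 and 19718 CPM in untreated HFSCs, and 19257 and 18139 CPM in treated HFSCs. Its highest library exceeded its lowest 1.19 times. All 4 HFSC libraries lay below all 4 progenitor libraries, and treated progenitors below untreated ones, but the gap between cell types was at most 0.15 on the log2 scale in the fit.

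Krt14, the type I partner, varied as little. Its message measured 17077 and 17819 CPM in untreated progenitors, 15567 and 17203 CPM in treated progenitors, 14600 and 16301 CPM in untreated HFSCs, and 14803 and 14654 CPM in treated HFSCs. The highest library exceeded the lowest 1.22 times, untreated progenitors lay above both HFSC groups and treated progenitors above treated HFSCs, and the other pairs of groups overlapped.

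Krt15 spread over 7.89 times in the same RNA-seq libraries. It measured 169 and 190 CPM in untreated progenitors, 104 and 96.8 CPM in treated progenitors, 683 and 764 CPM in untreated HFSCs, and 346 and 309 CPM in treated HFSCs. No 2 groups overlapped, and the order was untreated HFSCs, treated HFSCs, untreated progenitors and treated progenitors. Since Krt15 was taken up with its cell type difference known, the gap between HFSCs and progenitors is given as a description, with no test. It came to 4.02-fold in untreated cultures (log2 2.01, SE 0.118) and to 3.27-fold in treated cultures (log2 1.71, SE 0.118), where 0.148% and 0.746% of all genes passed an adjusted P of 0.05. The 4 comparisons share their groups and are not independent of each other. In a bulk library, fewer Krt15-expressing cells and less Krt15 message per cell cannot be told apart.

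**Figure D1:**
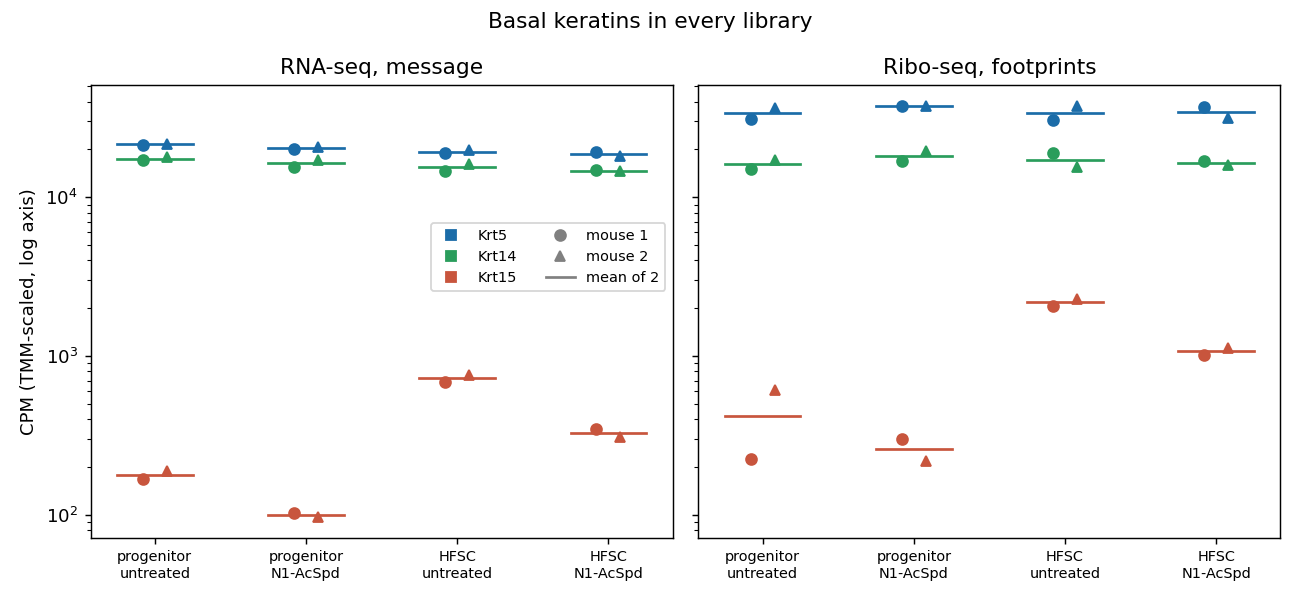
Message (left) and footprint (right) levels of Krt5, Krt14 and Krt15 in every library, in CPM on a log axis; circles and triangles are the 2 donor mice and bars the mean of the 2 libraries of a group. Krt5 and Krt14 form flat bands at 14600 CPM and above, while Krt15 lies between 96.8 and 764 CPM in RNA-seq, highest in untreated HFSCs.

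N1-AcSpd went with less Krt15 message in both cell types. In progenitors Krt15 was 1.79-fold lower (log2 -0.84, SE 0.116; edgeR, adjusted P = 0.0427), and both treated libraries lay below both untreated ones. It was 1 of 3 genes that passed in that direction, 0.0211% of the 14205 tested, with 0.239% passing in either direction. The adjusted P rose to 0.0760 with the donor mouse as a block and to between 0.161 and 0.303 when a single library was left out, the value itself staying between -0.92 and -0.74. Within each mouse the difference was -0.71 and -0.97 on the log2 scale.

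In HFSCs the Krt15 message was 2.21-fold lower with N1-AcSpd (log2 -1.14, SE 0.115), and again both treated libraries lay below both untreated ones. With edgeR this gave an unadjusted P of 4.98e-06 and an adjusted P of 0.0561, past which no gene of the 14205 was called (0%), although 1100 genes had an unadjusted P under 0.05 and DESeq2 called 125. DESeq2 gave Krt15 an adjusted P of 3.15e-13, and over all settings the adjusted P ran from 3.15e-13 to 0.463. By replicate number the difference was -0.98 and -1.30 in the 2 mice. This pairing is in doubt, since in RNA-seq the mouse numbering of the treated HFSCs goes against that of the other groups. The treatment differences of the 2 cell types did not differ past the threshold: the interaction was -0.30 on the log2 scale (95% interval -0.67 to 0.07; edgeR, unadjusted P = 0.0982, adjusted P = 1.00).

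The messages of Krt5 and Krt14 did not pass the test in any comparison. With N1-AcSpd, Krt5 differed by -0.07 (95% interval -0.32 to 0.17) in progenitors and by -0.05 (-0.30 to 0.19) in HFSCs on the log2 scale. Krt14 differed by -0.09 (-0.36 to 0.18) and by -0.07 (-0.34 to 0.20). Between HFSCs and progenitors, Krt5 differed by -0.15 (-0.39 to 0.10) untreated and by -0.13 (-0.37 to 0.12) treated, and Krt14 by -0.18 (-0.44 to 0.09) and by -0.15 (-0.42 to 0.11). The lowest bound of these intervals was 0.736-fold, for Krt14 between untreated cell types, and none reached the fitted difference of Krt15 with N1-AcSpd.

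**Figure D2:**
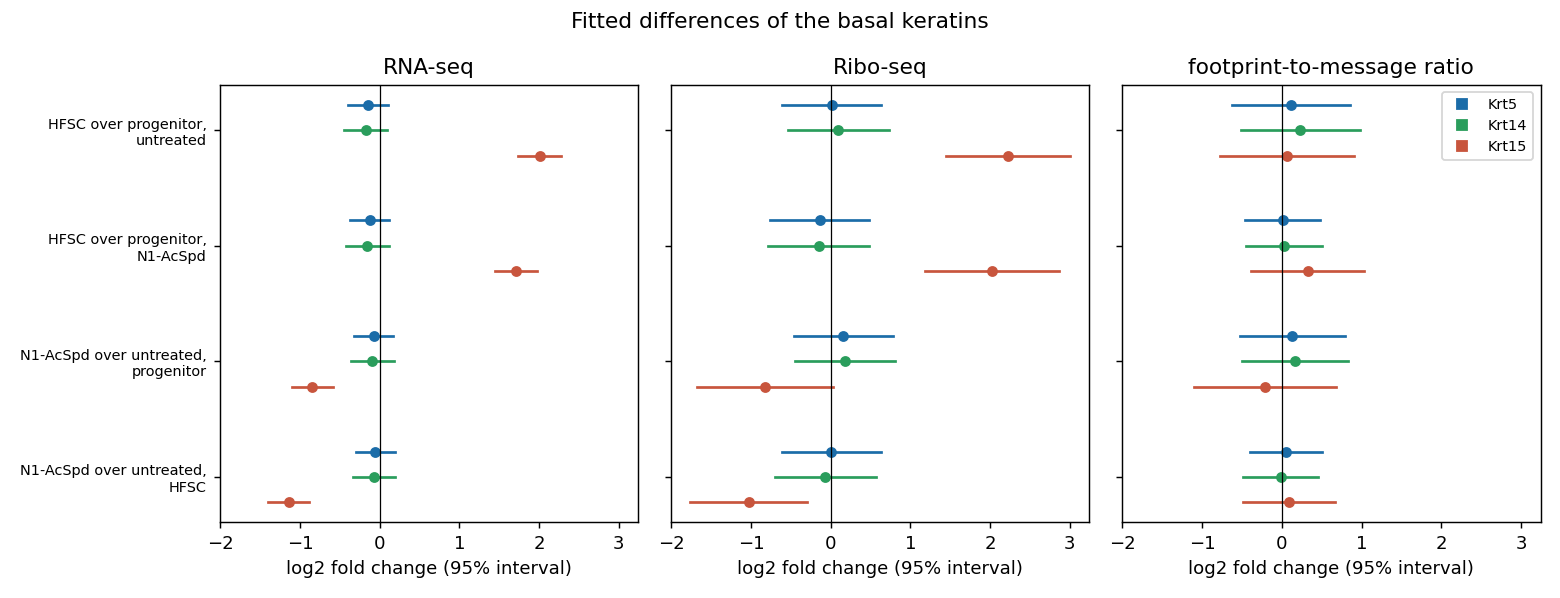
Fitted log2 fold changes of Krt5, Krt14 and Krt15 with 95% intervals, by comparison (rows), for RNA-seq, Ribo-seq and the footprint-to-message ratio (panels); each group held 2 libraries. Krt15 lies at 2.01 and 1.71 for HFSCs over progenitors and at -0.84 and -1.14 for N1-AcSpd in RNA-seq, and every interval of Krt5 and Krt14 spans 0.

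Footprints of Krt15 followed the same order of group means with far fewer counts behind them. The numbers of Krt15 footprints were 9 and 152 in untreated progenitors, 24 and 13 in treated progenitors, 116 and 284 in untreated HFSCs, and 145 and 68 in treated HFSCs. These corresponded to 227 and 616 CPM, to 299 and 218 CPM, to 2077 and 2279 CPM, and to 1012 and 1128 CPM. Both HFSC groups lay above every progenitor library and apart from each other, whereas the untreated and treated progenitors overlapped. As a description, HFSCs exceeded progenitors 4.68-fold untreated (log2 2.23, SE 0.397) and 4.07-fold treated (log2 2.03, SE 0.428), where 0.0237% and 0.0356% of 8431 genes passed.

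With N1-AcSpd, Krt15 footprints in HFSCs were 2.04-fold lower (log2 -1.03, 95% interval -1.77 to -0.29), with an unadjusted P of 0.00625 and an adjusted P of 1 in edgeR, and the 2 mice gave -1.02 and -1.0. No gene was called in that comparison by edgeR (0%, with 299 at an unadjusted P under 0.05) or by DESeq2. In progenitors the value was -0.83 (95% interval -1.68 to 0.02; unadjusted P = 0.0566, adjusted P = 1), the 2 mice gave 0.37 and -1.42, and without replicate 2 of the untreated progenitors the value was 0.20. That comparison called 0.0237% of all genes. Of the 4 progenitor libraries, 3 held 9 to 24 Krt15 footprints.

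Footprints of Krt5 ran from 30427 to 37794 CPM and those of Krt14 from 15053 to 19475 CPM. Treated progenitors lay above untreated progenitors and treated HFSCs in Krt5 and above treated HFSCs in Krt14, and the other pairs of groups overlapped. No comparison passed the test, with log2 values between -0.14 and 0.16 for Krt5 and between -0.15 and 0.18 for Krt14, and with intervals that reach from -0.78 to 0.81.

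The share of Krt15 among the type I chains of basal cells followed the Krt15 level. Krt15 made up 1.02% ± 0.0523 (SD, n = 2) of the Krt14 and Krt15 messages in untreated progenitors, 0.610% ± 0.0719 in treated progenitors, 4.47% ± 0.00674 in untreated HFSCs and 2.18% ± 0.156 in treated HFSCs. Among footprints the shares were 2.48% ± 1.40, 1.42% ± 0.439, 11.3% ± 2.02 and 6.14% ± 0.686 in the same order. In every group Krt15 thus held a larger mean share of the footprints than of the messages. With the 4 treated libraries set against the 4 untreated ones, the ratio of Krt15 to Krt14 messages was lower by a log2 difference of -0.91 but not past the spread (exact permutation test, two-sided, P = 0.343, adjusted over 8 tests P = 0.777), since HFSC and progenitor libraries stand far apart within each set. Permuted within each cell type, a scheme added after seeing the data, the same difference gave an exact permutation P of 0.0556. This is the smallest that 36 arrangements can give, and treated and untreated libraries were already seen not to overlap within either cell type. For footprints the log2 difference was -0.85, with an exact permutation P of 0.429 over all libraries and of 0.111 within each cell type.

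**Figure D3:**
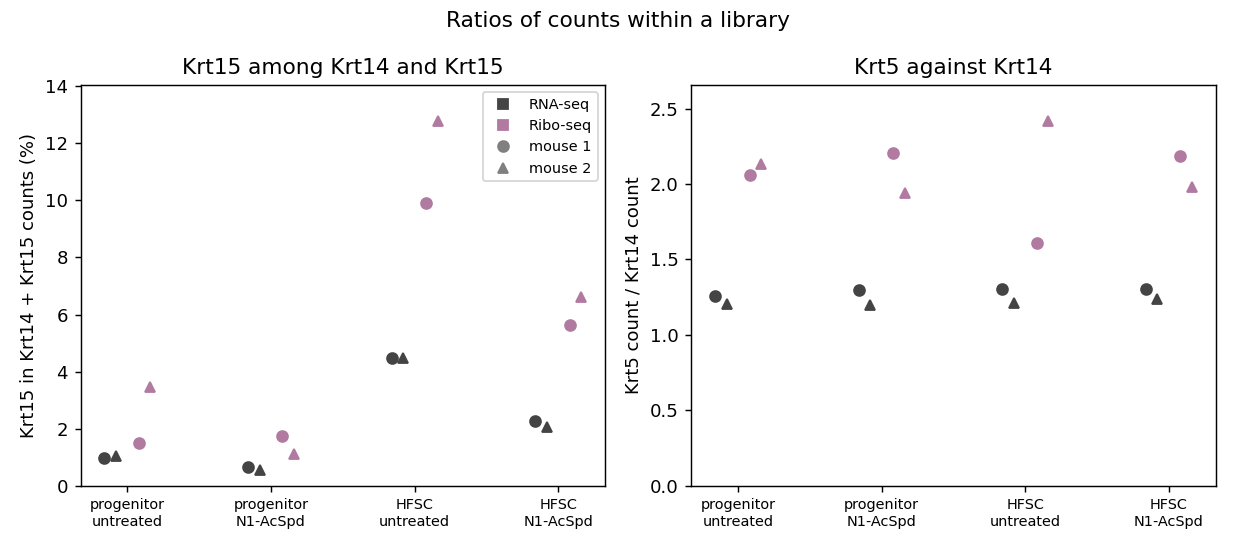
Share of Krt15 in the sum of Krt14 and Krt15 counts in percent (left) and ratio of Krt5 to Krt14 counts (right) in each library of RNA-seq and Ribo-seq; circles and triangles are the 2 mice. The Krt15 share reaches 4.47% of messages in untreated HFSCs and is 2.18% in treated ones, and the Krt5 to Krt14 ratio stays between 1.2 and 1.31 in RNA-seq and between 1.61 and 2.41 in Ribo-seq.

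The filament partners Krt5 and Krt14 kept their ratio of messages within a narrow range. Krt5 counts exceeded Krt14 counts 1.2 to 1.31 times over the 8 RNA-seq libraries, and per length of transcript the ratio was 0.927 to 1.01. It did not differ past the spread between treated and untreated libraries (log2 difference 0.02, exact permutation test, P = 0.743) or between HFSCs and progenitors (0.03, exact permutation test, P = 0.486). These tests leave out the pairing by mouse. By replicate number, the ratio was higher in mouse 1 than in mouse 2 in all 4 groups. Within replicate number and treatment it was higher in HFSCs than in progenitors in 4 of 4 pairs. Both statements rest on the mouse numbering, which the treated HFSCs go against in RNA-seq. With their numbers crossed, replicate 2 of the treated HFSCs (1.24) would lie below replicate 1 of the treated progenitors (1.30), and the order of the mice in the treated HFSCs would be reversed. Footprints gave another ratio: Krt5 exceeded Krt14 1.61 to 2.41 times in counts and 1.35 to 2.02 times per length of coding sequence. The lowest footprint ratio thus lay above the highest message ratio.

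The footprint-to-message ratio, which is the footprint level per coding kilobase over the message level per transcript kilobase and is often read as translational efficiency, differed between the 3 genes. It was 1.66 to 4.54 for Krt15 (median of 8 libraries 3.67), 1.82 to 2.42 for Krt5 (median 2.25) and 1.03 to 1.51 for Krt14 (median 1.27). Krt15 stood above Krt5 and Krt5 above Krt14 in 7 of 8 library pairs, the exception being replicate 1 of the untreated progenitors with its 9 Krt15 footprints. Libraries were paired by replicate number, which the treated HFSCs go against in RNA-seq. Their 2 pairs are therefore in doubt, among them replicate 2 with the Krt15 value of 4.54. Without the length correction, the ratio of mean CPM of Krt15 exceeded that of 84.1% of 2259 genes with at least 10 counts on average in both assays. For Krt5 the figure was 52.6% of genes and for Krt14 22.9%.

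This order followed the share of coding words that occur at 1 place only. The comparison was extended to the 5 most abundant other keratins. Krt1, with 96.3% of its words found once, had a ratio per length of 4.82, although only 100 footprints stood behind it. Krt15 had 3.67 at 94.3%, Krt5 2.20 at 81.5%, Krt17 0.960 at 77.8% and Krt14 1.24 at 61.3%. Krt16 had 0.635 at 38.0%, Krt6a 0.535 at 22.7% and Krt6b 0.294 at 21.9%. Apart from Krt17 against Krt14, the order of the 8 keratins was the same by both measures. The part of shared sequence in the ratios was not tested, and the points share all libraries.

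**Figure D4:**
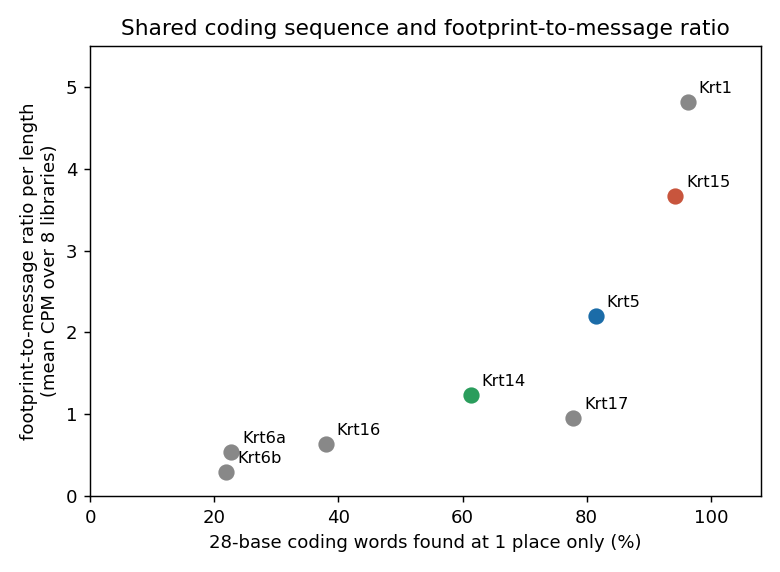
Footprint-to-message ratio per length, from mean CPM over 8 library pairs, against the percentage of 28-base coding words found at 1 place only, for Krt5, Krt14, Krt15 (coloured) and the 5 most abundant other keratins (grey). Ratios run from 0.294 for Krt6b at 21.9% to 4.82 for Krt1 at 96.3%.

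Between conditions, by contrast, the footprint-to-message ratio of the 3 genes did not pass the test. Krt15 differed by 0.07 (95% interval -0.77 to 0.91) between untreated HFSCs and progenitors and by 0.32 (-0.39 to 1.03) between treated ones. With N1-AcSpd it differed by -0.21 (-1.11 to 0.68) in progenitors and by 0.09 (-0.49 to 0.67) in HFSCs. Krt5 and Krt14 lay between -0.02 and 0.23 in all 4 comparisons. Every adjusted P of the members in edgeR was at least 0.89, and no gene of the 8010 to 8766 tested was called in any of the 4 comparisons by edgeR (0%, with 459 to 576 genes at an unadjusted P under 0.05) or by DESeq2. For Krt15 with N1-AcSpd in progenitors the interval ran from 0.464-fold to 1.61-fold.

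**Figure D5:**
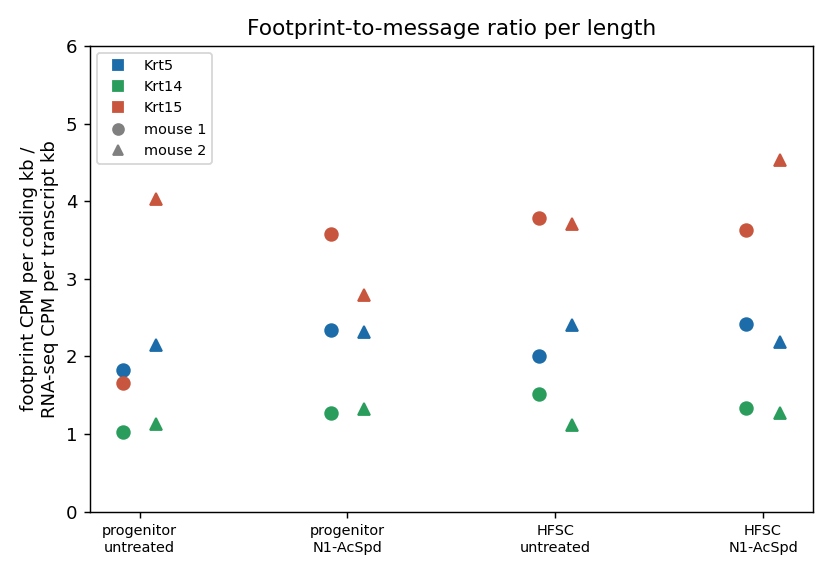
Footprint-to-message ratio per length in each library pair, for Krt5, Krt14 and Krt15, with libraries paired by replicate number. This pairing is in doubt for the treated HFSCs. Circles and triangles are the 2 mice. Krt15 (1.66 to 4.54) stands above Krt5 (1.82 to 2.42) and Krt5 above Krt14 (1.03 to 1.51) in all pairs but that of replicate 1 of the untreated progenitors.

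Among the 50 other keratins listed, 49 were in the table, and 33 had the mean of at least 1 RNA-seq count needed to be tested. Many of these 33 held only a few counts per library, the least of them 0 to 2. The directions and medians over the 33 therefore rest in large part on keratins near the floor and do not show a shift of the whole family. In untreated cultures 23 of these 33 had lower values in HFSCs than in progenitors and none passed the test, with a median of -0.42 on the log2 scale against -0.01 over all genes, of which 0.148% passed. In treated cultures 19 of 33 had lower values, with a median of -0.26 against 0.00 over all genes, and 2 passed, where 0.746% of all genes did. Krt6b, a keratin of activated keratinocytes, fell by 1.48 (adjusted P = 0.0472), and Krt80 fell by 1.58 (adjusted P = 0.0317). With N1-AcSpd, none of these keratins passed in either cell type. All 5 of the most abundant had positive values in both cell types: Krt6a 0.19 in progenitors and 0.21 in HFSCs, Krt17 0.09 and 0.05, Krt16 0.57 and 0.32, Krt6b 0.81 and 0.21, and Krt1 1.82 and 1.45 on the log2 scale. The smallest adjusted P among these was 0.109 (edgeR), for Krt1 in progenitors. Treated and untreated libraries overlapped for Krt17, Krt16 and Krt6b in HFSCs and for Krt17 in progenitors. Krt6a shared 69.4% of its coding words with Krt6b, so the 5 signs are not independent of each other.

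Markers of suprabasal cells had higher summed levels where Krt15 was lower. The 7 markers (Krt1, Krt10, Ivl, Lor, Flg, Sbsn and Krtdap) summed to 420 and 432 CPM in untreated progenitors against 650 and 877 CPM in treated ones. They summed to 220 and 303 CPM in untreated HFSCs against 293 and 383 CPM in treated ones, so that the HFSC groups overlapped. None of the 7 was at 0 in both libraries of a group, but Flg held only 3 and 0 counts in untreated HFSCs and 0 and 3 in treated ones. In progenitors all 7 had higher values with N1-AcSpd, with a median of 1.46, and only Ivl, the cornified envelope protein involucrin, passed (log2 1.38, edgeR, adjusted P = 0.00540), where 0.239% of all genes passed. In HFSCs 6 of 7 had higher values, with a median of 0.63, and none passed, where 0% of all genes did. These 6 include Flg, whose few counts give no direction. The 5 listed HFSC markers had medians of -0.14 in HFSCs and -0.007 in progenitors with N1-AcSpd. In each cell type 2 had higher and 3 lower values, and none passed, where 0% and 0.239% of all genes did. The part of suprabasal cells in the Krt15 difference was not tested.

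Genes that connect, anchor or regulate basal keratins were also measured. Of the 6 plakins, which tie keratin filaments to desmosomes and hemidesmosomes, 5 were tested; of the 10 listed regulators of basal keratin genes, including Trp63 (p63, the master factor of stratified epithelia), all 10 were; and of the 6 adhesion genes, including the hemidesmosome integrins Itga6 and Itgb4, all 6 were. None passed in RNA-seq, Ribo-seq or the footprint-to-message ratio in any comparison, where at most 0.746%, 0.0356% and 0% of all genes passed, so that few or no calls among 21 genes is also what the share over all genes gives. Their medians with N1-AcSpd in RNA-seq lay between -0.10 and 0.07 in both cell types, against -0.01 over all genes.

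Across the 8 RNA-seq libraries, the pattern of Krt15 was close to that of Ltbp2 (Pearson r of log2 CPM 0.993) and Apbb1 (0.990) among 12241 genes. Krt5 was most like BC030336 (0.981), St3gal2 (0.967) and Smim15 (0.957), and Krt14 most like Sesn2 (0.954), Pex2 (0.954) and Tmem43 (0.953). Krt5 and Krt14 correlated with each other at 0.907, whereas Krt15 correlated with Krt5 at -0.55 and with Krt14 at -0.49. These are descriptions over 8 libraries that share mice, scaling and 4 group means.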

How the data were processed

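RNA-seq and Ribo-seq were made from the same lysates of sorted organoid cells. The authors trimmed adapters (flexbar), filtered out rRNA and tRNA (Bowtie 1.2.3) and aligned with STAR 2.7.3a to GRCm38.p5; featureCounts is named in the submitters' processing notes. The deposited values are counts per transcript, without unique molecular identifiers. The region counted is not given in the sources used here. The authors' own tables of differential expression and translation were used only for gene names. Of 64026 transcripts, 1 was kept per gene (22579 genes).

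edgeR 4.0.16 (quasi-likelihood test, TMM, groups of all 8 libraries of an assay, mean of at least 1 count, Benjamini-Hochberg adjustment, threshold 0.05) was used for counts. The footprint-to-message ratio was tested as the interaction of assay and group over the 8 libraries of each comparison. CPM were TMM-scaled. Ratios within libraries had exact permutation tests. DESeq2 1.42.0, other scalings, filters and left-out libraries were tried, and tests were checked on simulated data. Annotation was GENCODE M21. Replicate numbers come from the sample titles, which name no mouse. They were taken as the 2 donor mice and pair the libraries on that reading, which the treated HFSCs go against in RNA-seq. p-values rest on 2 mice. The members, gene lists and rules were chosen with earlier results of these data known. Named genes were the members, listed genes past the threshold (at most 6 per comparison), the 5 most abundant other keratins, Cd34 and Itga6, and the 3 genes most like each member (1 of them is not reported here); Ivl, a listed marker, was named after its value was seen.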

Additional observations from a re-analysis of the deposited data

How the results depend on the processing

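The direction of the Krt15 message differences held under all settings run, and their calls did not. With N1-AcSpd, the Krt15 message in HFSCs passed the threshold with no minimum count (log2 -1.14, adjusted P = 0.00537), with DESeq2 (-1.14, adjusted P = 3.15e-13), with only the libraries compared (-1.14, adjusted P = 0.0463) and with crossed replicate numbers. In progenitors it no longer passed with a replicate block (-0.84, adjusted P = 0.0760), with counts summed over transcripts (-0.84, adjusted P = 0.0816) or with only the libraries compared (-0.84, adjusted P = 0.0634), 1 library left out gave -0.92 to -0.74, and 1 mouse left out gave -0.97 and -0.71. The causes were not tested. The replicate block changed no other call of the 3 genes. It took the genes called in RNA-seq from 21 to 3 and from 106 to 44 (HFSC over progenitor, untreated and treated) and from 34 to 7 (N1-AcSpd in progenitors), and those called for the footprint-to-message ratio with N1-AcSpd in progenitors from 0 to 5. A block with the mouse numbers of the treated HFSCs crossed in RNA-seq, chosen after seeing the data, called 751, 903, 446 and 269 genes, the last for N1-AcSpd in HFSCs, and took the ratio calls with N1-AcSpd in HFSCs from 0 to 2. DESeq2 called 268, 375, 174 and 125 in the same order; in Ribo-seq edgeR called 0 to 3 genes per comparison, and 0 to 15 over all settings.

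The other reversals were in values called under no setting; those that came with another scaling, filter, tool or fit were near 0. The interactions in RNA-seq became -0.015 (Krt14) and -0.017 (Krt5) with library totals. Krt5 footprints between untreated cell types became -0.012 (RLE), -0.038 (library totals), -0.032 (minimum mean of 10 counts), -0.012 (DESeq2) and -0.010 (only the libraries compared), and with N1-AcSpd in HFSCs -0.050 (RLE), -0.028 (library totals), -0.0039 (no minimum), -0.085 (minimum of 10), -0.050 (DESeq2), -0.0024 (summed transcripts) and -0.0022 (only the libraries compared). The footprint-to-message ratio between treated cell types became, for Krt14, -0.026 (RLE), -0.044 (minimum of 10) and -0.024 (DESeq2), and for Krt5, -0.044 (RLE), -0.013 (library totals), -0.064 (minimum of 10), -0.042 (DESeq2) and -0.013 (all 16 libraries in 1 fit). Between untreated cell types that of Krt15 became -0.025 with the replicate block, and that of Krt14 with N1-AcSpd in HFSCs became 0.022 with all 16 libraries.

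Leaving out libraries or a mouse gave these log2 ranges, among which the Krt15 footprints and ratio with N1-AcSpd in progenitors and the Krt15 footprint interaction changed sign from main values of -0.83, -0.21 and -0.20. In RNA-seq with N1-AcSpd in HFSCs, Krt14 ran from -0.15 to 0.020 and Krt5 from -0.12 to 0.013, and the interactions from -0.10 to 0.15 and from -0.061 to 0.10. In Ribo-seq between treated cell types, Krt15 ran from 1.70 to 2.35 and Krt5 from -0.26 to 0.024, and between untreated ones Krt14 from -0.14 to 0.33, Krt15 from 1.84 to 3.28 (without replicate 1 and without replicate 2 of the untreated progenitors) and Krt5 from -0.088 to 0.16. With N1-AcSpd in HFSCs, footprints of Krt14 ran from -0.30 to 0.11, of Krt15 from -1.10 to -1.0 and of Krt5 from -0.26 to 0.28, and those of Krt15 in progenitors from -1.42 to 0.37. The interactions ran from -1.39 to 0.42 (Krt15) and from -0.30 to 0.023 (Krt5). The footprint-to-message ratio ran, between treated cell types, from -0.060 to 0.064 (Krt14) and from -0.077 to 0.044 (Krt5); between untreated ones from -0.028 to 0.55 (Krt14), from -0.15 to 1.08 (Krt15) and from -0.033 to 0.20 (Krt5); with N1-AcSpd in HFSCs from -0.29 to 0.25 (Krt14), from -0.051 to 0.30 (Krt15) and from -0.14 to 0.26 (Krt5); and in progenitors from 0.16 to 0.31 (Krt14), from -0.46 to 1.08 (Krt15) and from 0.065 to 0.36 (Krt5). Ribo-seq depth limits every footprint statement on Krt15. Values with a mouse left out rest on the replicate numbers, which the treated HFSCs go against in RNA-seq.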
